A study of Arabidopsis thaliana with 24 samples.

Results

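The genes described here were transcribed in the shoot apex of Arabidopsis thaliana seedlings and were close to the limit of detection in their true leaves. The genes were chosen by their measured FPKM: a gene was taken when its mean level was at least 15 FPKM over the 12 shoot apex libraries and its level was under 0.5 FPKM in each of the 12 true leaf libraries. FPKM scales the fragments of a transcript by its length and by the mapped reads of the library, so levels are given per length and can be set side by side between genes. Of 33322 genes, 6856 reached the apex limit and 19 met both limits. The homeobox genes STM and KNAT1 were left out beforehand, which leaves 17 genes. The same exclusion named LSH3, LSH4 and CUC2, of which LSH3 and LSH4 exceeded the leaf limit and CUC2 missed the apex limit. The tissue levels chose these genes, so they are given as a description and carry no test.

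The shoot apex group and the true leaf group came from the same kind of seedlings, wild type Col-0, raised in soil at 22 °C for 14 days under 12 h light (about 100 µmol m-2 s-1) and 12 h dark. They were then moved to constant light (about 60 µmol m-2 s-1), in which the circadian clock runs without a daily signal. Tissue was taken 90, 94, 98, 102, 106 and 110 h after the transfer. Each library pooled 6 to 10 frozen seedlings, cut apart while frozen, and there were 2 libraries per tissue and time point (replicate 1 and replicate 2). The labels speak of 2 independent experiments without saying which number belongs to which. No treatment is described, although the column names of the deposited values all contain the word mock.

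The shoot apex holds the stem cells of the shoot, the flanks where new leaves begin, the boundaries between them and the youngest leaf primordia. KNOX homeobox genes such as STM keep its central cells undifferentiated and are switched off where a leaf forms. Its outer cell layer makes the cuticle and expresses many small secreted proteins, and genes expressed at the flanks set how far new organs grow. A library of a dissected apex averages over these cell types, so fewer cells of a type and less RNA per cell cannot be told apart.

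Few of the 17 genes belong to the regulators of the meristem known from textbooks, which the choice sets in part. STM and KNAT1 were left out by name, and low genes such as WUS and CLV3 miss the apex limit. PAN encodes a bZIP transcription factor known for its part in flower development. ZPR2 encodes a LITTLE ZIPPER protein, a small partner that keeps HD-ZIP III transcription factors from binding DNA, and AT5G66940 encodes a Dof-type zinc finger protein. CYP78A5, also called KLUH, encodes a cytochrome P450 that promotes organ growth. The others encode mainly small secreted or lipid-related proteins and enzymes by their annotation. There are 2 germin-like proteins of the cupin fold (AT5G38940 and AT5G38930), 2 lipid-transfer proteins (AT5G01870 and AT5G59330), the defensin PDF1.5 and the protease inhibitor UPI. FTM1 encodes an acyl carrier protein desaturase named after the meristem at the transition to flowering, and scpl31 a serine carboxypeptidase-like protein. AT4G35810 encodes a 2-oxoglutarate-dependent oxygenase, AT5G25970 a glycosyltransferase of the Core-2/I-branching type and UMAMIT14 a transporter of the amino acid exporter family. AT3G59270 carries an FBD-like domain and AT5G38320 is annotated as an uncharacterized protein.

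The genes lie on all 5 chromosomes, with 8 on chromosome 5, 5 on chromosome 1, 2 on chromosome 3 and 1 each on chromosomes 2 and 4. The 2 germin-like genes are neighbours on the plus strand of chromosome 5 (TAIR10.1), AT5G38930 at chr5:15585028-15586029 and AT5G38940 at chr5:15588623-15589791. Their RefSeq transcripts were identical at 825 of 929 aligned columns (88.8%) and shared 68 windows of 50 bases, 7.1% of the windows of AT5G38940 and 7.24% of those of AT5G38930. How the authors counted reads that match both is not stated, so their separate levels are uncertain to that extent. The 250 bases before their annotated starts were far less alike, with 51.1% identity. These upstream sequences are shown because the pair are neighbours of 88.8% transcript identity, together with those of AT5G25970 and AT5G59330, whose change over time had the smallest adjusted p. They are read 5′ to 3′ from TAIR10.1 as given by RefSeq, with capitals marking a TATA box (TATAAA) or an L1 box (TAAATGCA or TAAATGTA) on either strand.
AT5G38940 (chr5:15588373-15588622, plus strand): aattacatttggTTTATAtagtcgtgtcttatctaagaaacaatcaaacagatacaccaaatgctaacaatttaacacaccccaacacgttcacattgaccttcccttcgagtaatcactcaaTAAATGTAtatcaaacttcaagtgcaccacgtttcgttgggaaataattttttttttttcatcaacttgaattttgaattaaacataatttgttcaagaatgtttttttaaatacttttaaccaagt
AT5G38930 (chr5:15584778-15585027, plus strand): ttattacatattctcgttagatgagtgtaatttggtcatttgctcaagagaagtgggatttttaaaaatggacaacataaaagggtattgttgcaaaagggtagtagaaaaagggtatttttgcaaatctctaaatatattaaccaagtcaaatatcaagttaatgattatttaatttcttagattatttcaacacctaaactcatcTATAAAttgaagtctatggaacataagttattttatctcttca
AT5G25970 (chr5:9066028-9066277, plus strand): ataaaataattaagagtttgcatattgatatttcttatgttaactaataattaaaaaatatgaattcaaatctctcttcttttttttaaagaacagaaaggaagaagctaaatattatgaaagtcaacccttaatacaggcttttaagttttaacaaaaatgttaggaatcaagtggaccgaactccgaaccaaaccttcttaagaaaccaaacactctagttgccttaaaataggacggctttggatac
AT5G59330 (chr5:23931064-23931313, plus strand): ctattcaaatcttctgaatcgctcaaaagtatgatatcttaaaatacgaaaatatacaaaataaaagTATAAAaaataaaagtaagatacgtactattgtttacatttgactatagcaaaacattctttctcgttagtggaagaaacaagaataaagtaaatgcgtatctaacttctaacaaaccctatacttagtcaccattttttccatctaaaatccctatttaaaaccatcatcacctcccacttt

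In these sequences AT5G38940 holds an L1 box, the element known from genes of the outer cell layer, with its first base 127 bases before the start. AT5G38940 also holds a TATA box on the opposite strand (TTTATA), 238 bases before the start. AT5G38930 and AT5G59330 hold a TATA box 43 and 183 bases before the start, and AT5G25970 holds none of the searched motifs. The search covered the 250 bases before the start of the 17 genes on both strands, beside 27443 annotated starts. An L1 box stood before 2 of the 17 (AT5G38940 and PAN), against 4.49% of all starts. A TATA box stood before 8 of the 17, against 47.3% of all starts. The evening element (AAAATATCT) and the G-box (CACGTG), which clock proteins and their partners are known to bind, stood before 0 of the 17, against 2.36% and 6.49% of all starts. The CCA1-binding site (AAAAATCT) stood before PAN, on each strand, against 6.69% of all starts, and the site II element (TGGGCC) before AT5G38320, against 13.7%. In UPI a TATAAA and a TTTATA overlap; such matches are letters in a window and not shown binding sites.

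The highest level belonged to the germin-like gene AT5G38940, a cell wall type protein by its family. Its apex levels were 79.3 (lowest), 124 (median) and 177 FPKM (highest), against leaf levels of 0, 0.045 and 0.239 FPKM. It was listed at 0 in 6 of 12 leaf libraries. Its leaf values lie near whole multiples of what 1 read is worth at a depth estimated from the table, which gives a rough estimate of 950 to 1549 reads in each apex library, against 9 reads over the 12 leaf libraries together. The depth of each library was chosen to bring low values close to whole reads. Where a gene had several annotated transcripts, its length was chosen likewise, so the closeness is partly built in. Such an estimate cannot be given for every gene. The leaf values of PDF1.5, AT5G66940, UMAMIT14, FTM1 and PAN lay on average 0.38, 0.34, 0.32, 0.30 and 0.29 reads from a whole number. Those of scpl31, AT5G38930, UPI and AT3G59270 lay 0.25, 0.24, 0.23 and 0.22 reads away, against 0.021 for AT5G38940. In each library 34.3% to 40.2% of low values lay within 0.1 of a whole read, so most did not. The lipid-transfer gene AT5G01870 followed with 46.8, 76.9 and 102 FPKM in the apex, against 0, 0.137 and 0.256 FPKM in leaves. FTM1 stood at 25.7, 57.4 and 99.5 FPKM in the apex, against 0, 0.0725 and 0.257 FPKM in leaves. CYP78A5 stood at 46.9, 58.8 and 82.0 FPKM in the apex, with a leaf median of 0.047 and a leaf maximum of 0.21 FPKM. These 4 genes had the highest apex means, 119 ± 29.7, 79.1 ± 16.2, 62.2 ± 23.1 and 60.9 ± 12.4 FPKM (SD, n = 12 each), and CYP78A5 and FTM1 differed by less than their spread.

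Next in order came the lipid-transfer gene AT5G59330 at 46.8 ± 12.2 FPKM, the oxygenase gene AT4G35810 at 35.5 ± 5.86 and scpl31 at 35.1 ± 7.71 (SD, n = 12 each). The germin-like gene AT5G38930 averaged 30.7 ± 8.35 FPKM, the FBD-like gene AT3G59270 26.2 ± 4.83 and UPI 23.6 ± 3.88. The glycosyltransferase gene AT5G25970 averaged 22.2 ± 6.32 FPKM and the Dof gene AT5G66940 21.1 ± 2.34. The lowest 5 were PDF1.5 at 20.5 ± 3.20, ZPR2 at 19.9 ± 3.75, UMAMIT14 at 17.6 ± 3.87, AT5G38320 at 17.2 ± 3.39 and PAN at 15.7 ± 1.88 FPKM. Between neighbours in this order, the steps from AT5G38940 to AT5G01870 and from CYP78A5 to AT5G59330 exceeded the larger SD of the pair, and the other steps did not. Across all 17 genes the single lowest apex value was 10.3 FPKM (UMAMIT14) and the single highest leaf value 0.36 FPKM (PAN). The lowest apex value of a gene was 35.4 to 332 times its highest leaf value, a gap which the 2 limits of the choice set in part.

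**Figure D1:**
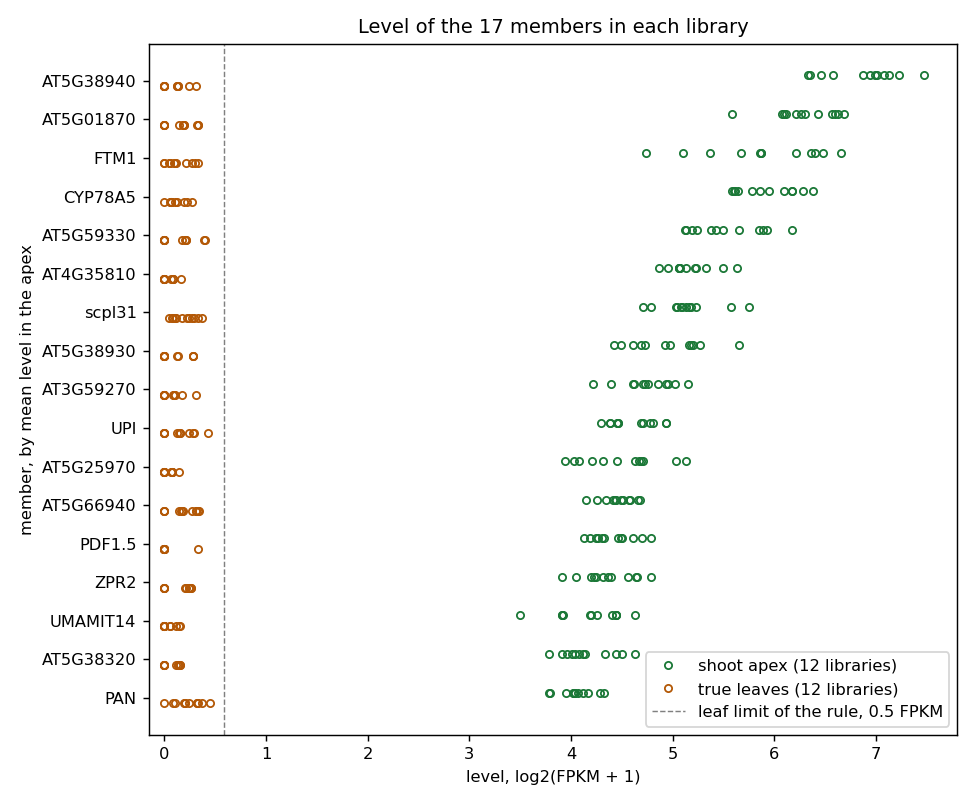
Level of each of the 17 genes in every library as log2(FPKM + 1), 12 shoot apex libraries (green, upper row of each gene) and 12 true leaf libraries (brown, lower row), with genes ordered by mean apex level. The leaf points lie left of the dashed line at 0.5 FPKM, and the lowest apex point is UMAMIT14 at 10.3 FPKM.

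Leaf values were low but not uniformly 0. Of the 204 leaf values of the 17 genes, 124 were above 0, and each gene was above 0 in some leaf library. PDF1.5 was above 0 in 1 leaf library, and scpl31 in all 12. The summed level of the 17 genes was 485 to 818 FPKM in apex libraries (median 649), against 0.524 to 2.13 FPKM in leaf libraries (median 1.57). The leaf sums were 0.524 to 1.76 FPKM in replicate 1 and 1.51 to 2.13 FPKM in replicate 2. The shoot apex list of 7 genes (STM, KNAT1, CUC2, LSH3, LSH4, WUS and CLV3) summed to 167 to 256 FPKM in the apex, against 3.63 to 9.10 FPKM in leaves. Its stem cell genes WUS and CLV3 were low even in the apex, with means of 0.0644 and 0.513 FPKM, and were at 0 in all 12 leaf libraries.

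Near the limits the choice is a matter of small differences. PAN, AT5G38320 and UMAMIT14 were the lowest inside the apex limit, and AT1G06090, NIP5;1 and LRP1, at 13.9, 13.4 and 12.6 FPKM, were just outside it. PAN, UPI and AT5G59330 came closest to the leaf limit from inside, with leaf maxima of 0.36, 0.345 and 0.316 FPKM. Just outside it were AT1G31310, AT1G29270 and LSH2, with leaf maxima of 0.506, 0.508 and 0.541 FPKM and apex means of 19.8, 19.6 and 17.2 FPKM. The genes left out beforehand had apex means of 25.9 ± 4.38 (STM), 27.2 ± 4.33 (KNAT1), 34.3 ± 6.06 (LSH3), 128 ± 16.9 (LSH4) and 5.39 ± 0.75 FPKM (CUC2, SD, n = 12 each).

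Relatives of several of these genes were found in leaves as well. Of 11 genes with the product name of AT3G59270, however, 0 averaged at least 1 FPKM there. Of 39 annotated cupin genes of the same product name, 13 averaged at least 1 FPKM in the apex and 9 in leaves. In the apex AT5G38940 was the highest among them. AT5G38930 was within its spread of the next, ATARD2 at 29.7 ± 2.70 FPKM (SD, n = 12). The next gene after the pair, AT5G38950, was at 0 in all 24 libraries. ZPR2 was 1 of 4 LITTLE ZIPPER genes, and ZPR1 was higher than it in the apex, at 31.1 ± 5.46 FPKM, but also reached 9.28 ± 1.62 FPKM in leaves (SD, n = 12 each). CYP78A5 had the highest apex level of 6 CYP78A genes, and CYP78A8 was next at 24.3 ± 7.85 FPKM in the apex, against 9.29 ± 2.88 in leaves. FTM1 was level with the housekeeping desaturase gene SSI2 in the apex, which stood at 62.7 ± 8.01 FPKM there and at 78.1 ± 17.2 FPKM in leaves. Among the plant defensin genes PDF1.5 followed LCR69 and LCR68 in the apex, and 10 of the other 14 were under 1 FPKM in both tissues. LTP3, the neighbour of AT5G59330, reached 8.08 ± 1.60 FPKM in the apex, against 0.552 ± 0.752 in leaves.

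PAN carries a further doubt. On the annotation it overlaps AT1G68630, a PLAC8 family gene at 12.3 ± 2.67 FPKM in the apex, against 0.106 ± 0.0775 in leaves (SD, n = 12 each), and the noncoding gene AT1G09003. Windows shared with these genes made up 655 of the 1820 windows of 50 bases in its transcript. Whether counting used the strand is not stated, so within these shared windows reads of PAN and of its overlapping genes cannot be told apart. The other 14 genes outside the germin-like pair shared no window with another gene, apart from 2 windows of scpl31 shared with AT4G15100.

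By their medians the 17 genes varied more between apex libraries than other apex transcripts did. Their coefficient of variation over the 12 apex libraries was 11.1% to 37.2%, with a median of 20.4%, against a median of 10.5% over all 6856 genes that reached the apex limit (quartiles 7.66% and 15.3%), and this variation includes differences between the replicate numbers. FTM1 (37.2%), AT5G25970 (28.5%) and AT5G38930 (27.2%) varied most, and AT5G66940 (11.1%), PAN (12.0%) and PDF1.5 (15.6%) varied least. Of the 17 genes, 11 had their highest mean at 90 h, against 8.33% of the 6856 genes. The lowest mean fell at 102 or 106 h for 15 of the 17, against 34.5% of the 6856 genes. The highest mean of a time point exceeded the lowest by 1.17 to 2.61 times, with a median of 1.52, against a median of 1.22 over the 6856 genes, and the 1.17 of PDF1.5 lay below that. No test is given for these shares.

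The clearest time course was that of the glycosyltransferase gene AT5G25970, in replicate 1 and replicate 2 alike. It stood at 31.7 and 34.1 FPKM at 90 h, 24.7 and 25.2 at 94 h, 20.9 and 17.5 at 98 h, 15.9 and 14.3 at 102 h, 15.3 and 18.9 at 106 h and 23.7 and 24.5 at 110 h. The values at 90 h lay above all others, and those at 102 and 106 h below those at 90, 94 and 110 h. A 24 h wave fitted to log2(FPKM + 1) had a size of 0.50 ± 0.048 from mean to peak (the amplitude, log2, SE) and peaked at 90.5 ± 0.37 h, with a limma adjusted p of 7.07e-05. The difference between the 6 time points, free of a wave shape, spanned 1.08 log2 units with a limma adjusted p of 0.00484.

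The lipid-transfer gene AT5G59330 fell over the same hours. In replicate 1 and replicate 2 it stood at 71.2 and 56.5 FPKM at 90 h, 58.3 and 59.8 at 94 h, 44.0 and 42.1 at 98 h, 36.7 and 34.0 at 102 h, 35.6 and 33.8 at 106 h and 49.2 and 40.7 at 110 h. The values at 90 and 94 h lay above all later ones. Its wave amplitude was 0.46 ± 0.048, and the peak was at 91.7 ± 0.40 h (limma adjusted p = 0.000131), and its time points spanned 0.85 log2 units (limma adjusted p = 0.0120).

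AT5G38320, the uncharacterized gene, stood at 23.8 and 21.7 FPKM at 90 h, 19.2 and 20.7 at 94 h, 16.4 and 14.1 at 98 h, 12.8 and 14.5 at 102 h, 15.1 and 15.9 at 106 h and 15.4 and 16.6 at 110 h in replicate 1 and replicate 2. The libraries of 90 and 94 h did not overlap the later ones. Its wave amplitude was 0.31 ± 0.052, and the peak was at 91.0 ± 0.64 h (limma adjusted p = 0.00426). Its time point difference of 0.70 log2 units passed as well (limma adjusted p = 0.0252), but not when any of 8 of the 12 libraries was left out (those of 90, 94, 102 and 110 h; adjusted p up to 0.0796).

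In all, 7 of the 17 genes passed the wave test, against a background of 14.5% of the 19274 genes tested and 20.2% of the 6856 genes at or above the apex limit. Besides the 3 named, these were AT4G35810 with an amplitude of 0.26 ± 0.049 (limma adjusted p = 0.0097), FTM1 with 0.65 ± 0.13 (0.0129), UMAMIT14 with 0.35 ± 0.077 (0.0226) and AT5G38940 with 0.39 ± 0.089 (0.0266). The 7 peaks lay between 90.4 and 94.4 h, in the subjective night when counted in 24 h cycles from the transfer (84 to 96 h). Of the 1388 genes at or above the apex limit that passed, 24% peaked between 90 and 95 h, a span set after the 7 peaks were seen. The median amplitude was 0.28 over the 17 genes, against 0.10 over the genes at or above the apex limit and 0.11 over all tested genes. The time point test called 3 of the 17 genes, against a background of 4.02% of all tested genes and 5.64% of those at or above the apex limit. Sampling covered less than a full cycle, so a wave cannot be told from another smooth course with its highest values at the start.

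The oxygenase gene AT4G35810 was highest at 90 h, with 48.4 and 43.9 FPKM in replicate 1 and replicate 2, and lowest at 106 h, with 28.1 and 32.4 FPKM. FTM1 had the largest amplitude of the 17, and its replicates lay apart by a mean of 0.43 log2 units per time point, in either direction. It stood at 88.3 and 83.2 FPKM at 90 h, 57.4 and 99.5 at 94 h, 73.1 and 81.3 at 98 h, 49.8 and 57.4 at 102 h, 40.2 and 25.7 at 106 h and 56.8 and 33.3 at 110 h. The 106 h libraries were its lowest in each replicate number. UMAMIT14 stood at 20.8 FPKM in both libraries of 90 h and at 17.3 and 10.3 FPKM at 106 h. Its wave did not pass without replicate 2 of 94 h or of 106 h (adjusted p up to 0.0716).

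The germin-like gene AT5G38940 stood at 149 and 177 FPKM at 90 h, 126 and 127 at 94 h, 122 and 139 at 98 h, 79.3 and 87.1 at 102 h, 80.3 and 116 at 106 h and 94.5 and 134 at 110 h in replicate 1 and replicate 2. Its wave call was lost without either library of 90 h, either of 102 h or replicate 1 of 106 h (adjusted p up to 0.0739). Its neighbour AT5G38930 had 35.6 and 49.3 FPKM at 90 h and 21.4 and 25.4 FPKM at 102 h. The ratio of AT5G38940 to AT5G38930 was 3.33 to 5.21 over the 12 apex libraries, with a median of 3.86. Each gene of the pair was highest at 90 h and lowest at 102 h by mean.

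**Figure D2:**
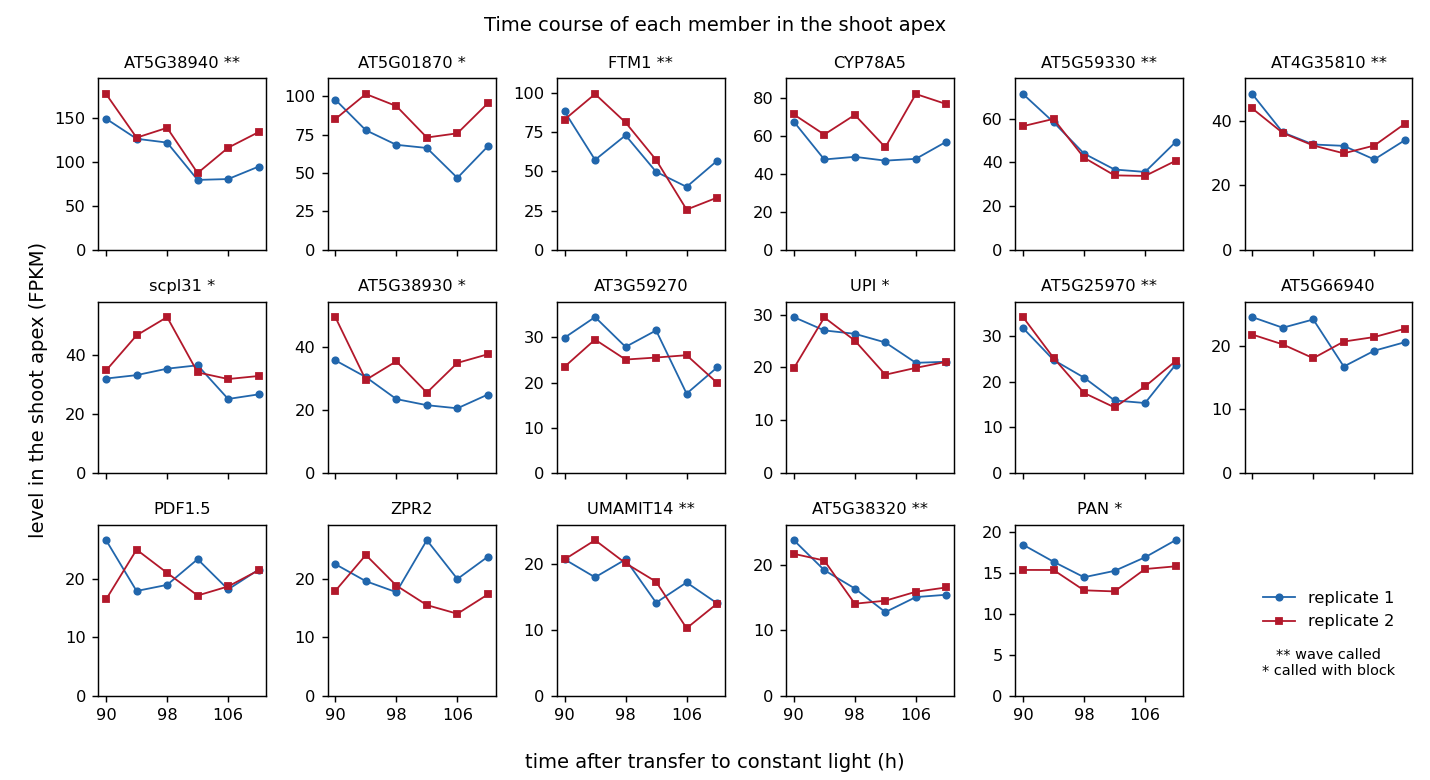
Level (FPKM, axes from 0) of each of the 17 genes in the shoot apex against hours after transfer to constant light, replicate 1 as blue circles and replicate 2 as red squares, 1 library per point. Genes with 2 asterisks passed the wave test, and those with 1 asterisk passed it with the replicate number as a term; AT5G25970 fell to 14.3 FPKM at 102 h in replicate 2 and stood at 24.5 FPKM at 110 h.

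The replicate numbers deviated together across time points, so the wave was also fitted with the replicate number as a block. With the block 12 of the 17 genes passed, against 21.2% of all tested genes and 29.0% of those at or above the apex limit. The added genes were PAN (limma adjusted p = 0.00511), scpl31 (0.00566), AT5G38930 (0.0224), UPI (0.0262) and AT5G01870 (0.0298). PAN had its fitted peak at 111.5 ± 1.09 h (SE of the fit without a block), after the last libraries at 110 h. On a 24 h cycle this fitted peak precedes those of the other 11. The amplitude of PAN was 0.17 ± 0.030 in the blocked fit. In replicate 1 and replicate 2 it stood at 18.4 and 15.4 FPKM at 90 h, 14.5 and 12.9 FPKM at 98 h and 19.0 and 15.8 FPKM at 110 h. scpl31 peaked later than the 7, at 96.5 ± 1.01 h (SE of the fit without a block). It stood highest at 98 h with 35.3 and 52.8 FPKM in replicate 1 and replicate 2. The time point test with the block called 5 of the 17, against 10.8% of all tested genes and 15.8% of those at or above the apex limit, and added AT5G38940 (limma adjusted p = 0.00827) and AT4G35810 (0.0215).

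Within a replicate number alone, with 6 libraries each, 4 genes passed the wave test in each. AT5G25970 and AT5G59330 passed in both. Their amplitudes were 0.48 and 0.48 within replicate 1 and 0.54 and 0.44 within replicate 2. FTM1 and UMAMIT14 had amplitudes of 0.39 and 0.20 within replicate 1, where they did not pass, and of 0.96 and 0.50 within replicate 2, where they did. AT5G38940 and AT5G38930 passed within replicate 1, with 0.45 and 0.37, and reached 0.36 and 0.30 within replicate 2. AT4G35810 (adjusted p = 0.161 within replicate 1 and 0.0506 within replicate 2) and AT5G38320 (0.0745 and 0.115) passed in neither alone.

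**Figure D3:**
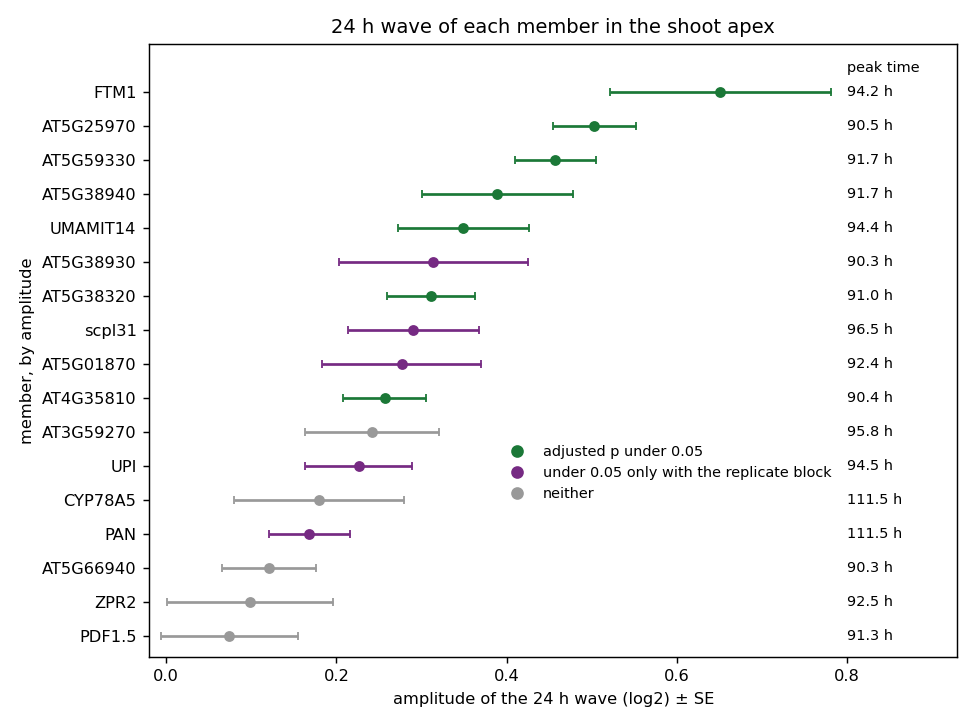
Amplitude of the fitted 24 h wave (log2, mean to peak, ± SE of the fit without a block) of each of the 17 genes in the 12 shoot apex libraries, with the fitted peak in hours after transfer at the right. Green genes passed at an adjusted p under 0.05, purple genes passed with the replicate block alone and grey genes in neither; FTM1 has the highest amplitude, 0.65.

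The growth regulator CYP78A5, the Dof gene AT5G66940, ZPR2, PDF1.5 and AT3G59270 passed neither wave fit. CYP78A5 had an amplitude of 0.18 ± 0.10 (limma adjusted p = 0.461) and AT3G59270 0.24 ± 0.079 (0.128). ZPR2 at 0.099 ± 0.098 (0.779) and PDF1.5 at 0.074 ± 0.081 (0.815) had the smallest amplitudes. The amplitudes of CYP78A5 and AT3G59270 lay within their SE of that of AT4G35810, which passed.

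Summed levels of marker gene lists are given next, and some of them moved with time. They are RNA levels and do not by themselves measure tissue composition. The leaf mesophyll list of 5 genes (RBCS1A, RBCS1B, LHCB1.3, CA1 and RCA) summed in the apex to 5292 and 4333 FPKM at 90 h, 7516 and 8602 FPKM at 102 h and 4406 and 4417 FPKM at 110 h in replicate 1 and replicate 2. In leaves the same sum was 31419 and 32939 FPKM at 90 h, 37601 and 40565 at 102 h and 27642 and 31879 at 110 h. The shoot apex list of 7 genes summed in the apex to 251 and 254 FPKM at 90 h, 212 and 167 FPKM at 102 h, 195 and 190 FPKM at 106 h and 232 and 247 FPKM at 110 h. The vascular list of 11 genes summed to 109 to 165 FPKM over the apex libraries and 181 to 240 FPKM over leaf libraries, none of its genes at 0. The root list of 18 genes summed to 44.3 to 52.1 FPKM in the apex, against 18.6 to 26.6 FPKM in leaves, mostly from SHR, SCR and ESB1, while EXPA7 and RHD6 were at 0 in all 24 libraries. The floral organ list of 5 genes stayed at 0.03 to 0.197 FPKM in the apex, against 0.325 to 0.631 FPKM in leaves. The seed storage list of 4 genes stayed at 0 to 0.746 FPKM in the apex, against 0 to 0.327 FPKM in leaves. The part of tissue composition in the time courses was not tested.

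The excluded genes, long known from the apex, also had fitted peaks near the start of the window. Those of STM and KNAT1 fell before the first libraries at 90 h, outside the hours sampled. STM had a wave of amplitude 0.26 ± 0.055 that peaked at 89.0 h (limma adjusted p = 0.0187), KNAT1 0.26 ± 0.053 at 89.9 h (0.0141), LSH3 0.31 ± 0.045 at 91.5 h (0.00147) and LSH4 0.22 ± 0.051 at 90.8 h (0.0304). CUC2 did not pass, with 0.18 ± 0.051 at 93.4 h (0.0692). Among KNOX and BELL homeobox genes 3 of 9 tested passed, among organ boundary genes 3 of 15, among stem cell genes 2 of 10 and among organ initiation genes 2 of 14, against the background of 14.5% of all tested genes and 20.2% at or above the apex limit. The genes of these 4 lists that passed peaked in the subjective night, as did 46.2% of all genes that passed and 42.4% of those at or above the apex limit. Of the 17 genes, CYP78A5 stands on 1 of these lists, that of organ initiation. The organ initiation genes that passed were ANT, with 0.22 ± 0.033 (limma adjusted p = 0.00207), and PID, with 0.34 ± 0.050 (0.00156). Of 13 genes of the epidermis and cuticle 1 passed, CER1 with a peak at 105.2 h (limma adjusted p = 0.0274), although 12 of them reached 15 FPKM in the apex. Of 11 tested floral genes 3 passed, SOC1 and SPL4 with peaks in the subjective day (107.0 and 105.6 h) and FD with a peak in the subjective night (110.7 h). Of the clock genes 9 of 9 tested passed, with a median amplitude of 1.18, for example LHY with 2.46 ± 0.088 at 94.0 h and ELF4 with 1.90 ± 0.13 at 107.7 h. The 17 genes and these lists come from the same libraries and their peaks were not compared by a test.

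The replicate numbers differed for 6 of the 17 genes (difference given as replicate 1 minus replicate 2, log2 ± SE, time point as a factor). CYP78A5 stood at 67.4, 47.5, 48.9, 46.9, 47.8 and 56.9 FPKM in replicate 1 from 90 to 110 h, against 71.2, 60.6, 71.0, 53.9, 82.0 and 76.6 FPKM in replicate 2. It was lower in replicate 1 at all 6 time points, by a difference of -0.39 ± 0.080 (limma adjusted p = 0.0118). AT5G38930 differed by -0.42 ± 0.091 (0.0134) and AT5G38940 by -0.27 ± 0.071 (0.0284), lower in replicate 1 at 5 and 6 of 6 time points. scpl31 differed by -0.28 ± 0.080 (0.0355) and AT5G01870 by -0.32 ± 0.099 (0.0453), each lower in replicate 1 at 5 of 6. PAN was higher in replicate 1 at 6 of 6 time points, by 0.18 ± 0.043 (limma adjusted p = 0.0187).

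Lower levels in replicate 1 were thus called for 5 of the 17 genes, against 4.81% of all tested genes (8.9% at or above the apex limit), and higher levels for 1 of the 17, against 15.8% (18.3%). That split depends on the scale of the libraries. On the deposited scale 3048 genes were higher in replicate 1 and 928 lower, and after rescaling each library by its median ratio to the gene-wise geometric mean 1724 were higher and 2064 lower. The median of all tested genes moved accordingly, to 0.00042 after rescaling, against 0.063 on the deposited scale (log2). After rescaling the same 5 genes were lower in replicate 1, against 10.7% of all tested genes (19.2% at or above the apex limit), and 0 of the 17 were higher, against 8.96% (10.3%). PAN then stood at 0.12 (limma adjusted p = 0.0786). Several calls were lost when single libraries were left out. With time point as a factor, leaving out 1 library also takes its partner out of the difference. That of AT5G01870 was lost without any of 10 of the 12 libraries (all but those of 90 h, adjusted p up to 0.12). That of scpl31 was lost without any of 8 (94, 98, 106 and 110 h, up to 0.0853). AT5G38940 lost its call without any of 6 libraries (90, 106 and 110 h; up to 0.0856) and PAN without any of 4 (102 and 110 h; up to 0.0593).

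**Figure D4:**
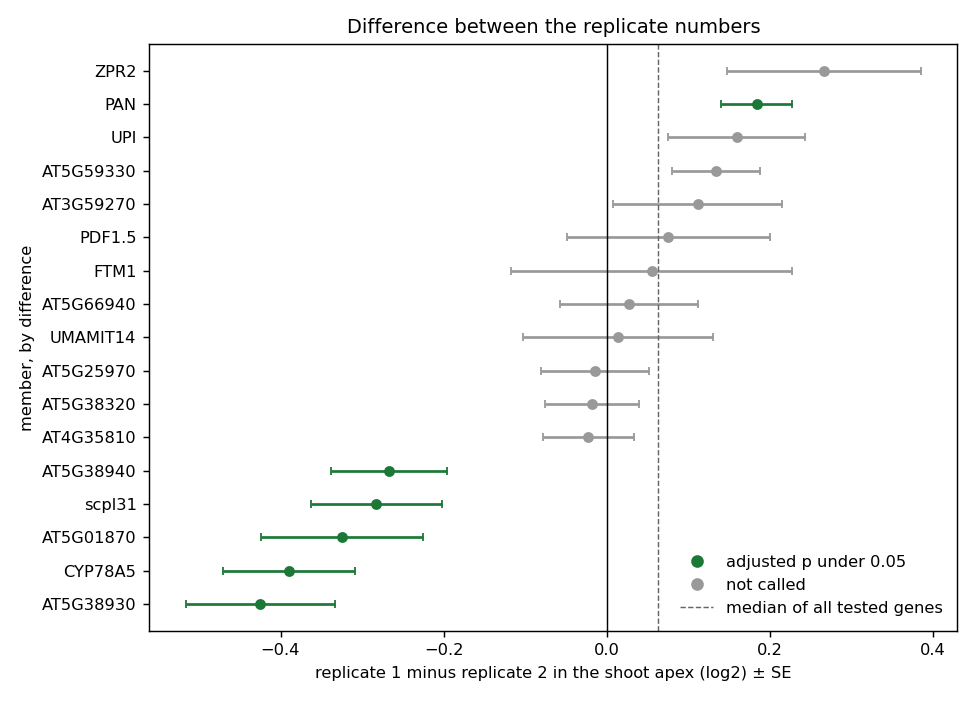
Difference between the replicate numbers in the shoot apex (replicate 1 minus replicate 2, log2, ± SE of the fit) for each of the 17 genes, green where the adjusted p was under 0.05 and grey otherwise. The dashed line marks the median of all tested genes, 0.063; 5 green points lie below 0, from -0.42 to -0.27, and PAN lies above at 0.18.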

How the data were processed

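PolyA RNA of 24 libraries (12 groups of 2) was sequenced as single-end 50 bp reads, per the labels' protocols. The authors deposited FPKM values for 33323 genes in 1 table, and the submitters' processing notes list HOMER, STAR 2.5.0c and the build TAIR10. Settings, strand and multiple matches are not given in the sources used here, and 1 gene with a text cell was left out. Depth is not given; from the steps between values it was roughly estimated at 7.52 to 14.75 M reads in apex and 10.86 to 14.37 M in leaf libraries.

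Levels were tested as log2(FPKM + 1) in the 12 apex libraries alone, because the genes were near 0 in leaves, with the limma package (version 3.58.1 in R 4.3.3, moderated by trended empirical Bayes, Benjamini-Hochberg over all tested genes, threshold 0.05). Fold changes on this scale are understated for low genes. Genes with at least 1 FPKM in at least 2 apex libraries were tested, 19274 in all, the 17 among them. A 24 h wave (cosine and sine terms, F-test), the 6 time points (F-test) and replicate 1 minus replicate 2 were tested; peak errors come from the delta method. Alternatives were another pseudocount (0.1), other filters, rescaled libraries, robust empirical Bayes, a shared spread over 24 libraries, other periods, a replicate block and leaving out libraries. A block with rescaled libraries was added after seeing the data. Differences between replicate numbers correlated between time points (15 pairs, r = 0.172 to 0.45 across the 19274 genes tested, which are not independent replicates). The numbers were therefore taken to pair time points. Where separate plants are not stated, p-values measure the spread between these libraries.

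The 17 genes and the lists were chosen with earlier results of these data known. Genes were named by a rule: the 12 highest in the apex, those passing a test, the 3 most and 3 least variable, list members, families and neighbours, and the 3 on each side of a limit; the remaining genes of the 17 are given with their levels. Gene positions and sequences come from RefSeq (TAIR10.1), and the deposited table holds no coordinates. The fits were tried on simulated data with noise drawn independently for each library. The replicate numbers here deviated together, a case which that simulation does not cover. Python 3.11.15, pandas 2.3.3, numpy 2.4.6, Biopython 1.88 and matplotlib 3.10.9 were used.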

Additional observations from a re-analysis of the deposited data

How the results depend on the processing

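Membership moved most with the limits: 9 genes met a leaf limit of 0.25 FPKM, 34 a leaf limit of 1, 33 a leaf mean under 0.5 and 29 an apex mean of 10, against 17. Rescaling gave 14 (without AT5G38320, PAN and UMAMIT14) and leaving out a library 17 to 19. The wave count of 7 was 12 with the replicate block, 12 with the block and rescaled libraries, 4 without replicate 1 and 4 without replicate 2, and 4 to 8 over all settings that leave out libraries. The time point count of 3 was 5 with the block, 7 with the block and rescaled libraries, 6 with a spread shared over 24 libraries and 2 to 4 without a library. The replicate count of 6 was 3 with no filter (scpl31, AT5G01870 and AT5G38940 lost their calls, with more genes tested) and 2 to 5 without a library, lowest without either library of 110 h. The block ended no call. The cause of these moves was not tested. Signs turned round among replicate differences that passed in no setting. After rescaling, FTM1 stood at -0.016, UMAMIT14 at -0.054 and AT5G66940 at -0.041. Without a library the ranges crossing 0 were -0.084 to 0.22 for FTM1, -0.12 to 0.092 for UMAMIT14, -0.047 to 0.090 for AT5G66940, -0.041 to 0.18 for PDF1.5, -0.054 to 0.013 for AT4G35810, -0.065 to 0.041 for AT5G25970 and -0.0625 to 0.013 for AT5G38320 (log2). The peak of ZPR2, uncalled throughout, moved to 107.6 h without replicate 2, and its amplitude ranged over 0.039 to 0.30 without libraries. Depth is an estimate, and leaf values here are a few reads per library, so differences among leaf libraries were not examined.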
